A study of Mus musculus with 4 samples.

Results

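The 5 genes described here encode proteases that connective tissue mast cells store in their granules, namely Tpsb2, Tpsab1, Mcpt4, Cma1 and Cpa3. They were picked by symbol from the 24421 genes of the deposited matrices because Tpsb2 and Mcpt4 were sharply lower after weight cycling, so their difference between the diet groups is given as a description, without a test. All 5 had a row in both matrices, and all 5 were among the 14106 genes left after the filter on low values (at least 0.5 CPM in 2 of the 4 libraries).

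RNA was sequenced from the epididymal adipose tissue, the visceral fat beside the epididymis, of wild-type male C57BL/6J mice. The high-fat control group (Ctrl, 2 libraries) was given a high-fat diet (HFD) without a break for 14 weeks, beginning at an age of 10 weeks. The weight-cycling group (WC1, 2 libraries) began HFD at 8 weeks of age, stayed on it for 8 weeks, lost weight on standard diet for 2 weeks and returned to HFD for 6 weeks. HFD therefore added up to 14 weeks in either group, and mice of both were 24 weeks old when tissue was taken. The labels do not say whether a library is 1 mouse or a pool, and with 2 libraries per group the errors below measure only the spread between these libraries. The libraries held between 61465029 and 90965297 reads, and no library was a copy of another.

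Mast cells are long-lived leukocytes that settle around vessels and in connective tissue, where stem cell factor keeps them alive through the receptor KIT. They package serine proteases and a carboxypeptidase with heparin on the proteoglycan serglycin, and release them when their receptor for IgE is crosslinked. Tryptases cut after basic residues and chymases after large hydrophobic ones, and carboxypeptidase A3 then trims the new ends. In fat, mast cells lie in the stroma among macrophages, vessels and progenitors, and their numbers have been followed in obesity.

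The tryptase gene Tpsb2 encodes the enzyme that is stored as a heparin-bound tetramer. Tpsb2 was measured at 159 CPM in Ctrl 1, 181 CPM in Ctrl 2, 20.1 CPM in WC1 1 and 13.7 CPM in WC1 2, where CPM is the deposited value, reads divided by a library size that the authors rescaled. Both WC1 libraries lay far below both Ctrl libraries. The means were 170 ± 15.2 CPM in Ctrl and 16.9 ± 4.56 CPM in WC1 (SD, n = 2 per group), which made the gene 10.1-fold lower in WC1. On the scale of log2(CPM + 1), which is used for all fold changes below unless said otherwise, the difference was -3.28 ± 0.19 (SE from the fit across all genes).

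The second tryptase gene, Tpsab1, was far less abundant. In C57BL/6 mice this gene carries a defect in splicing and gives no active enzyme, and RefSeq lists it as a transcribed pseudogene. It gave 5.78 and 6.69 CPM in Ctrl compared to 0.721 and 0.763 CPM after weight cycling, which were 395, 582, 44 and 48 reads. The groups did not overlap, and the 2 WC1 libraries were close to each other. The mean was 8.40-fold lower in WC1, and the difference of -2.05 ± 0.13 on the log2(CPM + 1) scale is smaller than those of the other members because the added 1 exceeds the WC1 values. On recovered reads, without that addition, edgeR placed Tpsab1 at -3.05.

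The chymases were next. Mcpt4 encodes the enzyme that is taken as the closest counterpart of human chymase, which can form angiotensin II and cut fibronectin. It had 139 and 162 CPM in the Ctrl pair and 18.9 and 13.9 CPM in the WC1 pair, without overlap. The mean was 151 ± 16.2 CPM in Ctrl and 16.4 ± 3.52 CPM in WC1, 9.22-fold lower, with a log2 difference of -3.14 ± 0.16. Cma1 encodes a chymase that in rodents has taken on the specificity of an elastase. It read 117 and 123 CPM in the Ctrl libraries against 15.4 and 9.25 CPM in the WC1 libraries, again with both WC1 libraries below both Ctrl libraries. Its mean was 120 ± 4.2 CPM in Ctrl and 12.3 ± 4.32 CPM in WC1, 9.76-fold lower, with a log2 difference of -3.23 ± 0.23.

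Cpa3 encodes carboxypeptidase A3, a zinc enzyme that removes hydrophobic residues from the end of peptides such as endothelin-1 and neurotensin. The 4 libraries gave 105 and 110 CPM in Ctrl and 13.1 and 8.10 CPM in WC1. The gene was 10.2-fold lower in WC1, with means of 108 ± 3.47 and 10.6 ± 3.52 CPM and a log2 difference of -3.26 ± 0.21. The 5 proteases therefore stood 8.40-fold to 10.2-fold lower in WC1, with a median log2 difference of -3.23 beside a median of -0.02 over all genes tested.

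**Figure D1:**
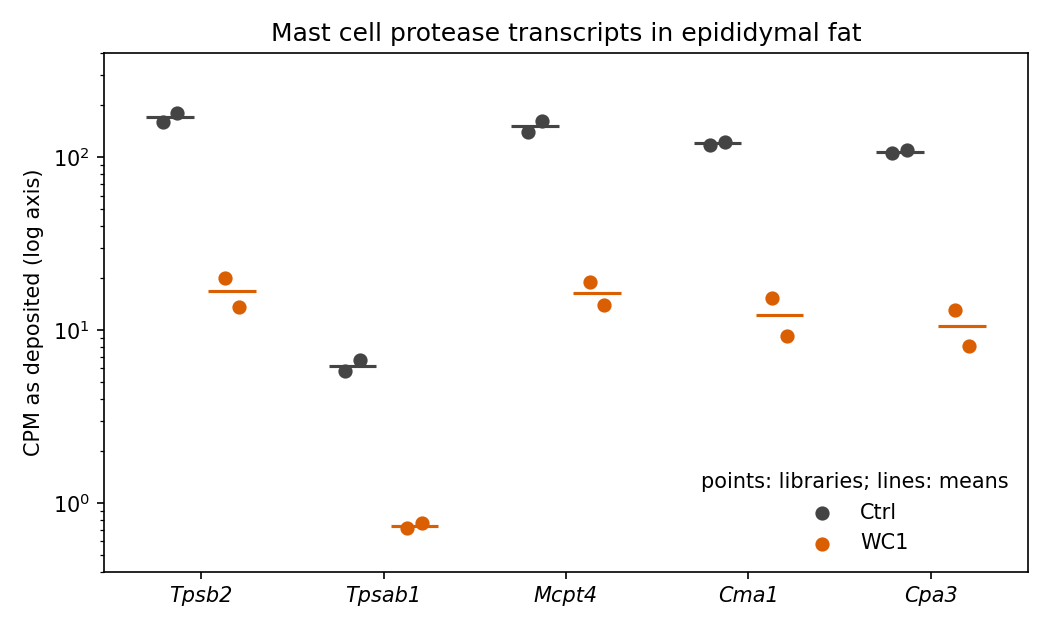
CPM of each protease gene (log axis) in the Ctrl (grey) and WC1 (orange) libraries, with points for single libraries and lines for the means of 2 libraries. In all 5 genes both WC1 points lie below both Ctrl points, and Tpsab1 lies below the other genes in both groups.

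In 36.6% of all genes tested both WC1 libraries lay below both Ctrl libraries and in 32.7% above them, and 7.71% were called lower in WC1 by limma at an adjusted p under 0.05. All 5 proteases belonged to both sets, and nothing is read from this because the members were chosen on the same contrast. RNA of whole tissue cannot tell fewer mast cells from less protease RNA in each mast cell.

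Since the direction was part of the choice, the make-up of the protease RNA was examined next. Levels of different genes were compared in TPM, the deposited values corrected for transcript length. The summed TPM of the 5 genes was 905 in Ctrl 1, 1016 in Ctrl 2, 128 in WC1 1 and 89.0 in WC1 2. The mean of this sum was 960 ± 78.3 TPM in Ctrl and 109 ± 27.6 TPM in WC1, 8.85-fold lower. WC1 2 was thus the lowest library for the summed TPM.

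Within this sum the shares of the genes moved little. Tpsb2 made up 31.2 ± 0.47% of the summed TPM in Ctrl and 30.2 ± 0.19% in WC1 (SD, n = 2 per group), with 30.9% and 31.6% in the Ctrl libraries just above 30.1% and 30.4% in the WC1 libraries. Mcpt4 made up 30.5 ± 1.0% and 32.4 ± 2.0%, and Cma1 made up 22.4 ± 0.89% and 21.98 ± 1.7%. For Mcpt4 and Cma1 the shares in the 2 groups differed by less than the larger of the SDs. Cpa3 made up 14.8 ± 0.63% in Ctrl and 14.1 ± 0.83% in WC1, and Tpsab1 1.12 ± 0.048% and 1.28 ± 0.35%. Each share of Tpsab1 in WC1 rests on 44 or 48 reads.

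Ratios between related genes were compared per library. The chymases together had 1.65, 1.62, 1.74 and 1.71 times the TPM of the tryptases in Ctrl 1, Ctrl 2, WC1 1 and WC1 2. This ratio was slightly higher in both WC1 libraries. The TPM of Tpsb2 was 28.5, 27.4, 29.0 and 19.8 times that of Tpsab1 in the same order, where the last ratio stands apart from the other 3. Cma1 had 1.51, 1.51, 1.59 and 1.54 times the TPM of Cpa3. Mcpt4 had 1.30, 1.44, 1.34 and 1.63 times the TPM of Cma1, with overlap between the groups and the highest ratio in WC1 2.

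**Figure D2:**
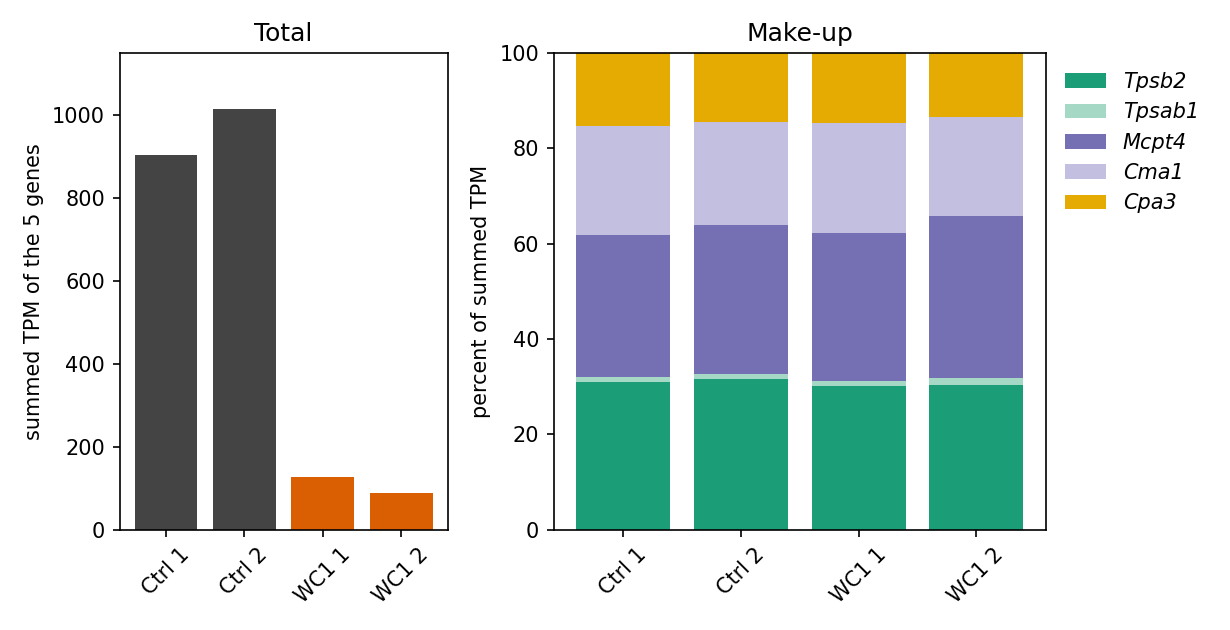
Left, summed TPM of the 5 protease genes in each library. Right, the percent of that sum held by each gene. The sums in WC1 1 (128) and WC1 2 (89.0) lie far below those in Ctrl 1 (905) and Ctrl 2 (1016), while the share of Tpsb2 stays between 30.1% and 31.6% in the 4 libraries.

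The order of the levels in TPM was nearly fixed. Tpsb2 and Mcpt4 were the leading pair in all 4 libraries, with means of 300.1 ± 28.9 and 293 ± 33.5 TPM in Ctrl and 32.8 ± 8.14 and 34.9 ± 6.75 TPM in WC1, so these neighbours did not differ beyond their spread in either group. Cma1 was the third gene with 214 ± 9.0 TPM in Ctrl and 24.1 ± 7.96 TPM in WC1. Cpa3 followed with 142 ± 5.59 and 15.4 ± 4.78 TPM, lower than Cma1 in every library. In WC1 the difference between Cma1 and Cpa3 was within the sum of their SDs. Tpsab1 was last with 10.8 ± 1.34 and 1.35 ± 0.024 TPM. Among all 24421 genes ordered by TPM, Tpsb2 was at rank 544 and 472 in Ctrl and at rank 4121 and 5402 in WC1.

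Differences between libraries of the same group are independent of the choice of the members. In Ctrl, the log2 difference of library 2 minus library 1 ranged from 0.07 for Cpa3 and Cma1 to 0.22 for Mcpt4, below the SD of 0.24 over all genes tested. In WC1 the same difference was -0.42 for Mcpt4, -0.53 for Tpsb2, -0.63 for Cpa3 and -0.67 for Cma1, compared to an SD of 0.32 over all genes tested. These 4 abundant members were thus all lower in WC1 2 than in WC1 1. Tpsab1, at 0.03 and with only 44 and 48 reads, did not share this difference. Of the 6 mast cell markers that were not members, Ms4a2 (-0.08), Mrgprb1 (-0.12), Fcer1a (-0.21) and Mrgprb2 (-0.47) were lower in WC1 2. Hdc (0.37) and Kit (0.40) were higher there. The differences of Ms4a2, Mrgprb1 and Fcer1a were below the SD of 0.32 and rest on few reads. In WC1 1 and WC1 2 these were 37 and 33, 104 and 94, and 72 and 56 reads. Between the same libraries the summed adipocyte markers went from 8878 CPM in WC1 1 to 12215 CPM in WC1 2 and the macrophage markers from 7780 to 5545 CPM. The mesothelial markers went from 64.4 to 175 CPM and the B cell markers from 8.90 to 33.6 CPM, and the part of these cell types in this difference was not tested.

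The proteases come from 3 places in the genome (GRCm38, the assembly of the mm10 build named in the submitters' processing notes; GENCODE M21 genes). Mcpt4 (chr14:56059629-56062313) and Cma1 (chr14:55941451-55944675), both on the minus strand, lie in the chymase locus with their starts 117.6 kb apart. Tpsb2 (chr17:25366305-25369098, plus strand) and Tpsab1 (chr17:25343245-25345562, minus strand) lie in the tryptase locus with their starts 20.7 kb apart. Cpa3 (chr3:20215620-20242181, minus strand) lies alone. Members of a family resemble each other, and the labels and methods do not say how reads that match several genes were assigned. The annotated transcripts of Tpsb2 and Tpsab1 were identical at 76.5% of 992 aligned bases and those of Mcpt4 and Cma1 at 70.2% of 928. None of the stretches of 50 bases in Tpsb2, Tpsab1 or Cpa3 occurred in a transcript of another gene. For Mcpt4 5.48% of them also occurred in Cma2 or Mcpt9, and for Cma1 5.46% occurred in Gm48934.

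Neighbouring genes of these loci were at or near 0. Of the 16 protein-coding genes and transcribed pseudogenes of the chymase locus from Cma1 to Gzmb, only Cma1 and Mcpt4 exceeded 3 CPM in any library. Mcpt1 and Mcpt2, which encode chymases of mucosal mast cells, Mcpt8, which encodes a basophil protease, and Cma2 had at most 6 reads in a library, and Mcpt9 had 0 reads in all 4. In the tryptase locus Tpsg1, which encodes a membrane-anchored tryptase and begins 175 bases after the end of Tpsb2, held 38 and 66 reads in the Ctrl libraries but 7 and 5 in the WC1 libraries. Whether reads from beyond the Tpsb2 end were counted for Tpsg1 was not tested. The pseudogene Mcpt-ps1, near Cma1, had 0.263 and 0.264 CPM in Ctrl against 0.0492 and 0.0635 CPM in WC1, and the granzyme gene Gzme had 0.146 and 0.103 against 0.688 and 0.413 CPM, all under or near the filter on low values.

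**Figure D3:**
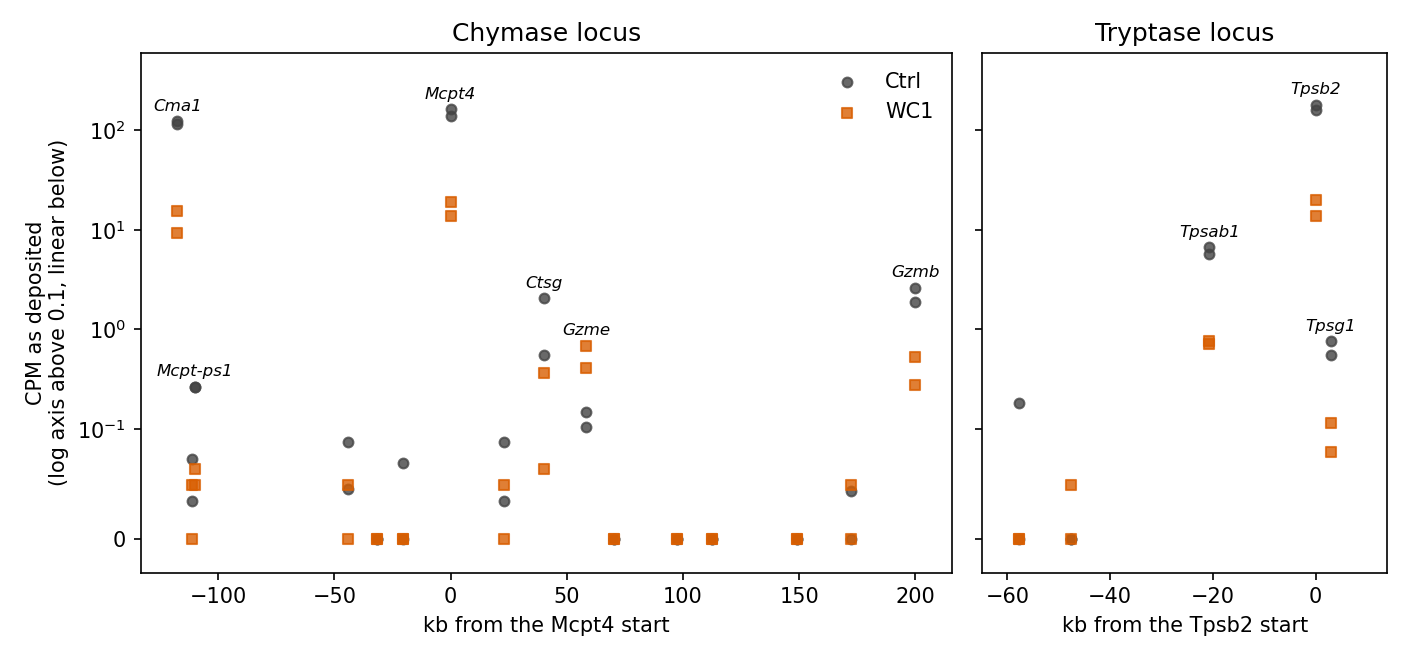
CPM in each library (log axis above 0.1, linear below) of the genes of the chymase locus against the distance of their starts from the Mcpt4 start (left) and of the tryptase locus against the distance from the Tpsb2 start (right), in kb. Cma1, Mcpt4 and Tpsb2 stand above 100 CPM in both Ctrl libraries, while most neighbours lie at or near 0 in both groups.

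Since the members differed together, the 250 bases before the start of each were read from RefSeq promoters (GRCm38.p6). The table held 3 of the 5, those of Mcpt4 (chr14:56062311-56062560), Cma1 (chr14:55944676-55944925) and Cpa3 (chr3:20242182-20242431), all on the minus strand and printed in the direction of transcription. Tpsb2 and Tpsab1 had no entry. Capitals mark the letters GATAA, which GATA factors read. In Cma1 they lie on the other strand and are printed as TTATC. GATA1 and GATA2 are factors of this family that mast cells depend on.
Mcpt4: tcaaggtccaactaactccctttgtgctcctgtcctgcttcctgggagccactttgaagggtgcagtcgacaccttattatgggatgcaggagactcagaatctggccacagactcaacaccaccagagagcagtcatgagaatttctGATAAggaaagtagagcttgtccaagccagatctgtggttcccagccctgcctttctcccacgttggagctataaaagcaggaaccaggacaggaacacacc
Cma1: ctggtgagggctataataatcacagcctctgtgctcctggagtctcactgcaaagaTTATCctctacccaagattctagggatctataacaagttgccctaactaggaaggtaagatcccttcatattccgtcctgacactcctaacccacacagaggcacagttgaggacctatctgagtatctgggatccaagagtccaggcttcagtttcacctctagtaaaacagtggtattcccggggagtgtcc
Cpa3: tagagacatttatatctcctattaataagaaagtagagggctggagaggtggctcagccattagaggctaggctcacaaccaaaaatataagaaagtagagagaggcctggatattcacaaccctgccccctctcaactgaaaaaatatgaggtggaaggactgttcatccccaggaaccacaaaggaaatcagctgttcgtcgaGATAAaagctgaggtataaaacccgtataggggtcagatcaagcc
Each of the 3 held these letters in 1 place, beginning at position -102 in Mcpt4, -194 in Cma1 and -45 in Cpa3 relative to the start. Of all 32851 promoters in the table, 22.6% held them within the same length. CATGTG, searched on both strands, and the palindrome CACGTG, letters that the mast cell factor MITF can read, were in 0 of the 3 and in 12.3% and 6.02% of all promoters. These are matches of letters only, and no binding was measured.

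Next, genes that were not used in choosing the proteases were examined in lists of mast cell biology. In the fit across all 14106 genes, 40 of the 102 tested genes of 6 such lists were called lower in WC1 and 8 were called higher, where the background was 7.71% lower and 10.2% higher. The median log2 difference was -0.37 over these 102 genes. All calls rested on both Ctrl libraries. Without Ctrl 1 or without Ctrl 2, limma called 0 genes of the 6 lists at an adjusted p under 0.05, while without a correction p was under 0.05 for 51 and 47 genes. Every call of a list gene given below was lost in this way. Without the filter on low values 31 were lower and 2 higher, and of the genes below Ltc4s, Srgn, Chst15, Serpina3n, Serpinb6a, Serping1, Mmp2, Ednrb, Agt, Ntsr2, Itga4, Vcam1 and Ccl5 were no longer called. In the TPM matrix 32 were lower and 9 higher, and of the genes below Srgn, B3gat3, Serping1, Itga4, Vcam1 and Cxcr4 were not called.

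Genes of mast cell identity had the lowest median of the 6 lists. Of 25 listed genes, 21 were tested, and 14 of these were lower and 2 higher, with a median log2 difference of -0.87. Of the 21, 2 had passed the filter only through the Ctrl libraries, Tph1 and Cyp11a1, so that these had to differ. Of the other 19, 12 were called lower. Among the 12, Mrgprb2 and Cd200r3 did not reach 0.5 CPM in both WC1 libraries. They would not have passed without the Ctrl libraries. Fcer1a, the subunit of the IgE receptor that binds IgE, gave 12.3 and 11.9 CPM in Ctrl compared to 1.18 and 0.890 CPM after weight cycling. The log2 difference was -2.69 ± 0.13 (limma adjusted p = 0.00404), and its CPM was 11.7-fold lower. Ms4a2, which encodes the signal-amplifying subunit of the same receptor, had 4.34 and 3.48 CPM in the Ctrl pair and 0.606 and 0.524 CPM in the WC1 pair, a log2 difference of -1.65 (limma adjusted p = 0.0115).

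The receptors of the Mrgprb group sense peptides and drugs on connective tissue mast cells. Mrgprb1 read 12.96 and 12.8 CPM in the Ctrl libraries against 1.70 and 1.49 CPM in the WC1 libraries, 8.04-fold lower (limma adjusted p = 0.00404). Mrgprb2 was 6.74-fold lower, with means of 4.86 and 0.722 CPM (limma adjusted p = 0.0139). In both genes the groups did not overlap. Amine genes were lower as well. Tph1, the first enzyme of serotonin synthesis, gave 7.78 and 8.94 CPM in Ctrl compared to 0.442 and 0.397 CPM after weight cycling, 19.9-fold lower, and it is one of the genes that passed the filter only through Ctrl. Hdc, which makes histamine, was 4.80-fold lower (limma adjusted p = 0.0181). Slc18a2, which loads amines into granules, was 6.27-fold lower (limma adjusted p = 0.00878). Il1rl1, the receptor for interleukin 33, had a log2 difference of -0.87 (limma adjusted p = 0.0181). Cyp11a1, the enzyme that starts steroid synthesis, had 2.62 and 1.76 CPM in Ctrl and 0.361 and 0.445 CPM in WC1, also passing the filter through Ctrl alone.

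Other genes of mast cells had smaller differences or overlapped. Kit had 20.1 and 24.9 CPM in the Ctrl pair and 14.6 and 19.5 CPM in the WC1 pair. The WC1 libraries were lower, with a small gap to Ctrl, and Kit was not called, with a log2 difference of -0.39 ± 0.18 (limma adjusted p = 0.178). Without WC1 2 it was called at -0.59 (limma adjusted p = 0.0418). Gata2 read 6.26 and 8.40 CPM in the Ctrl libraries against 7.98 and 8.44 CPM in the WC1 libraries, with overlap. Mitf (-0.58) and Hpgds (-0.62) were not called either. Kit and Gata2 are also expressed by progenitors or endothelial cells, and Mitf and Hpgds by macrophages. Whether other cells also express the genes of this list that were called lower was not examined. The summed macrophage markers were lower in WC1 as well, and their part in this list was not tested. Ltc4s, which makes leukotriene C4, and Poln were higher by 0.63 and 0.80. Gata1 was under the filter, with 26 and 29 reads in Ctrl and 0 reads in both WC1 libraries. A count of 0 allows up to 0.0492 and 0.0477 CPM there, for counting error only.

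Fcer1a, Ms4a2, Hdc, Mrgprb1, Mrgprb2 and Kit are the 6 markers that with the 5 proteases define mast cells here. Their median log2 difference was -1.84, and 5 of the 6 were called lower. The added 1 makes this difference smaller for markers of low CPM, as for Tpsab1. In CPM the 6 were 11.7-fold, 6.92-fold, 4.80-fold, 8.04-fold, 6.74-fold and 1.32-fold lower, in the order named. All markers of this set were above 0 in every library, so mast cell RNA was detected in both groups.

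Other granule proteases were sparse. Of 21 listed, 20 were in the matrix and 6 passed the filter, with Tpsg1 and Ctsg passing through the Ctrl libraries only. Of these 6, 3 were lower, 1 was higher and 2 were not called. Of the 4 that did not pass through Ctrl alone, 2 were lower, Prss34 and Gzmb. Neither reached 0.5 CPM in both WC1 libraries, so they too would not have passed without the Ctrl libraries. Prss34, a tryptase-like protease of basophils and some mast cells, gave 2.30 and 1.93 CPM in Ctrl compared to 0.606 and 0.365 CPM after weight cycling (limma adjusted p = 0.0200). Gzmb, the granzyme of cytotoxic lymphocytes that some mast cells also hold, was 5.63-fold lower (limma adjusted p = 0.0213). Tpsg1, which had to be lower since only Ctrl passed it, had means of 0.657 and 0.0971 CPM. Ctsg ran from 0.556 to 2.05 CPM in Ctrl and was not called.

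Of 29 tested genes that build, load and empty the granule, 8 were lower, 1 was higher and 20 were not called, with a median log2 difference of -0.33. Srgn, the serglycin core protein on which the proteases are held, had 133 and 141 CPM in the Ctrl pair and 110 and 100 CPM in the WC1 pair, a log2 difference of -0.38 ± 0.08 (limma adjusted p = 0.0383). Srgn is expressed by most leukocytes and by endothelial cells. Ndst2, the sulphotransferase that mast cells need to make heparin, stood at -0.28 and was not called. Ctsc, which activates the chymase zymogens by removing a dipeptide, had a log2 difference of -0.46 (limma adjusted p = 0.0243). The exocytosis genes Unc13d (-0.63), Vamp8 (-0.59) and Stx3 (-0.80) were lower, with limma adjusted p values between 0.0202 and 0.0249. B3gat3, which completes the linker that carries heparin, had a log2 difference of -0.37 (limma adjusted p = 0.0281), and Chst15, which sulphates chondroitin, was higher by 0.43.

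Of 14 tested inhibitors, 4 were lower and 1 was higher, where the background of 10.2% higher is above the share of that single gene. Serpina3n, a secreted serpin of the class that inhibits chymase-like enzymes, was at 271 CPM in both Ctrl libraries and at 426 and 613 CPM in WC1, a log2 difference of 0.91 ± 0.18 (limma adjusted p = 0.0351), and was not called without the filter on low values. Serpinb1a (-0.88) and Serpinb6a (-0.87), which block such proteases inside cells, were lower, as were Serpinb9 (-0.48) and Serping1 (-0.40), with limma adjusted p values between 0.0123 and 0.0480. Of these, Serpinb1a and Serpinb9 were also called without the filter on low values. Lxn, which encodes latexin, an inhibitor of A-type carboxypeptidases, read 29.0 and 31.5 CPM in the Ctrl libraries against 26.2 and 27.1 CPM in the WC1 libraries and was not called.

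Substrates and receptors of the proteases were then compared. Of 18 tested, 5 were lower, 3 were higher and 10 were not called. Mmp3, a stromelysin that chymase can activate, had the largest difference of this list, from a mean of 91.0 CPM in Ctrl to 17.3 CPM in WC1, 5.27-fold lower (limma adjusted p = 0.00623). Mmp2 (-0.98) and the alarmin Il33 (-1.18), both of which chymase can cut, were lower. Among the receptors for endothelin, whose peptide carboxypeptidase A3 degrades, Ednra stood at -0.86 and Ednrb at -1.23 (limma adjusted p = 0.0204 and 0.0327). Without the filter on low values Mmp2 and Ednrb were not called, and Mmp3, Il33 and Ednra were. Agt, which encodes the precursor of angiotensin, was higher in WC1 by 1.05 (limma adjusted p = 0.0357), as was the neurotensin receptor gene Ntsr2 by 1.10, with means of 1.66 and 4.70 CPM. F2rl1, the receptor that tryptase cleaves, gave 3.90 and 5.04 CPM in Ctrl compared to 3.33 and 3.22 CPM after weight cycling and was not called.

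Of 15 tested genes for the growth and homing of mast cells, 7 were lower and 8 were not called. Kitl, which encodes stem cell factor, the ligand of KIT, had 79.4 and 82.1 CPM in the Ctrl pair and 88.0 and 85.1 CPM in the WC1 pair, a log2 difference of 0.10 ± 0.07 (limma adjusted p = 0.323). Itgb7 and Itga4, the chains of a homing integrin, were lower, with log2 differences of -0.53 and -0.49, as was their ligand Vcam1 with -0.38. Cxcr4 (-0.41), Ccl5 (-0.85) and Il10 (-0.74) were also lower, with limma adjusted p values between 0.0240 and 0.0267. Itga4, Vcam1 and Ccl5 were not called without the filter on low values, which left 4 of the list lower.

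**Figure D4:**
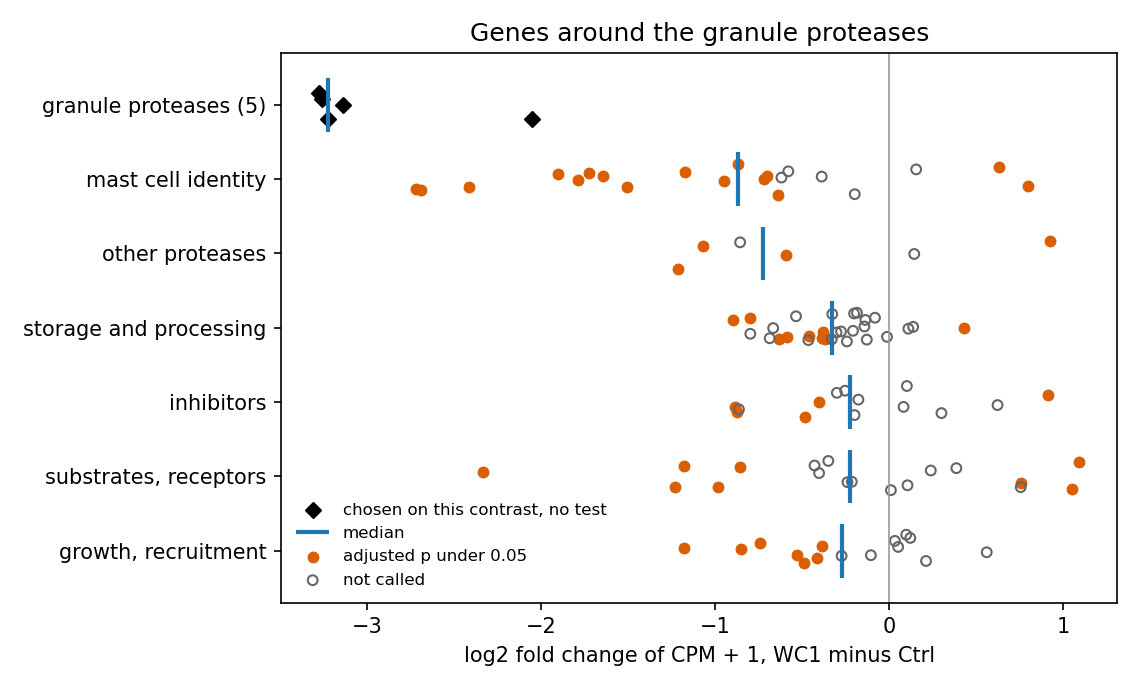
Difference of log2(CPM + 1), WC1 minus Ctrl, for the 5 proteases (black, no test) and for each tested gene of the 6 lists (orange, limma adjusted p under 0.05; open, not called), with the median of each list in blue. The proteases lie between -3.28 and -2.05, while the medians of the other lists lie between -0.87 and -0.23.

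To find genes that behave most like the proteases, the profile over the 4 libraries, centred on its mean, was compared with the mean profile of the 5 members by Euclidean distance in log2 units. The nearest were Akr1b8 (0.236), Eef1a2 (0.352), Fcer1a (0.369), Tph1 (0.391) and B430306N03Rik (0.422). The members themselves lay at 0.159 (Mcpt4) to 0.306 (Cpa3), and Tpsab1 at 0.998. The mean profile includes the members, so their closeness to it is partly built in. For Tpsab1 the added 1 exceeds the WC1 values and raises the distance, while its CPM was 8.40-fold lower. Akr1b8, which encodes an aldo-keto reductase, read 636 and 564 CPM in the Ctrl libraries against 88.9 and 61.0 CPM in the WC1 libraries. With 4 libraries in 2 groups such a likeness mostly states the size of the group difference, and the protease direction was itself the reason for the choice.

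Markers of other cells in the tissue also differed between the groups. Of the cell type markers that are not members, those of mast cells included, 31 were called in limma with all libraries and 0 without Ctrl 1 or without Ctrl 2, where 28 and 32 had a p under 0.05 before adjustment. Without the filter on low values 17 were called. The calls lost there were those of all 6 adipocyte markers, of the B cell marker, of S100a8, of 2 of the 3 fibroblast markers (Dcn and Lum) and of 4 of the 5 macrophage markers (all but Mrc1). Of 10 macrophage markers 5 were called lower, with a summed level of 11967 to 13039 CPM in Ctrl and 5545 to 7780 CPM in WC1. Of 8 endothelial and 8 adipocyte markers 6 each were higher, with sums of 462 to 512 and 4363 to 5328 CPM in Ctrl and of 958 to 1220 and 8878 to 12215 CPM in WC1. Of 8 fibroblast markers 3 were lower and 5 were not called, with sums of 9161 to 9471 CPM in Ctrl and 6492 to 8337 CPM in WC1. Col3a1, the most abundant of the 8, had means of 5263 and 4138 CPM and was not called (limma adjusted p = 0.344). Pdgfrb (0.05) and Col1a1 (0.09) were slightly higher, with overlap. The summed mesothelial markers overlapped between the groups, with 130 and 97.0 CPM in Ctrl and 64.4 and 175 CPM in WC1. Of the 9 tested T and NK cell markers 6 overlapped between the groups and all 9 were not called, with a median log2 difference of -0.08. The part of these cell types in the protease difference was not tested. Of 6 tested basophil markers 4 were lower, all of them also in the lists of mast cell biology, and the basophil protease gene Mcpt8 had at most 6 reads in a library. Of 3 tested eosinophil markers 2 were lower, Ccr3 with means of 7.69 and 2.45 CPM (limma adjusted p = 0.0243) and Ear1 with 1.503 and 0.646 CPM (limma adjusted p = 0.0404), while the third, Siglecf, was higher in both WC1 libraries without being called (0.22). Below the filter, Prg2 (17 and 24 reads in Ctrl, 25 and 40 in WC1) and Il5ra also lay above Ctrl in CPM, and Epx and Ear6 were at 0 in all libraries. Of 3 tested neutrophil markers S100a8 was higher, with means of 5.82 and 15.5 CPM (limma adjusted p = 0.0338), Ltf overlapped and Mmp8 was not called (-0.47). Below the filter S100a9 (45 and 31 reads in Ctrl, 6 and 10 in WC1), Cxcr2 and Retnlg lay below Ctrl in both WC1 libraries, and Ngp was at 0 in all. The summed B cell markers were 5.32 and 3.36 CPM in Ctrl and 8.90 and 33.6 CPM in WC1, with 1 of 5 tested called higher. The part of these cells was not tested either, and 6 of 8 markers of the epididymis were at 0.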

How the data were processed

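Poly(A) RNA of epididymal adipose tissue had been made into directional libraries, 2 for Ctrl and 2 for WC1, and groups were taken from the sample titles. The submitters' processing notes list fastp, HISAT2, StringTie and the mm10 build. The sources used here name neither the read counter nor the annotation. The authors deposited a matrix named CPM, a signal of reads over a rescaled library size whose columns sum to 97.6% to 105% of what plain CPM would give. In each column 100% of the values were whole multiples of the value of 1 read to within 0.01 read, so reads were recovered. The authors also deposited TPM, which keeps no depth. No comparison columns of the authors were used.

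The 14106 genes that reached 0.5 CPM in 2 or more libraries were fitted with limma 3.58.1 in R 4.3.3 on log2(CPM + 1), using a variance trend. Tests were two-sided, p-values were adjusted by Benjamini-Hochberg across these genes, and 0.05 was the threshold. Errors are SD of 2 libraries or SE of the fit. A gene with 3 reads stood at 0.0345 to 0.0492 CPM, depending on the library. An alternative used edgeR 4.0.16 or DESeq2 1.42.0 on recovered reads. All fits were tested on simulated data in which 200 genes had been changed. Read counts of the replicates differed by more than sampling noise, with a chi-square of 35.3 (Ctrl) and 87.4 (WC1) for each degree of freedom.

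The members and the gene lists were chosen with earlier results of these data known. Named genes are the 5 members, the mast cell markers, up to 5 called genes of each list by smallest p and the 5 genes of most similar profile. Others were named for their role, after their values were seen. Protein sequences were not used here, and 1 gene that the rule names is not reported here. Positions follow GENCODE M21, promoters RefSeq (GRCm38.p6), and transcripts were aligned with Biopython 1.88.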

Additional observations from a re-analysis of the deposited data

How the results depend on the processing

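The alternatives were another pseudocount (0.25), no filter on low values, a mean of at least 5 CPM, the TPM matrix, quantile normalization, edgeR or DESeq2 on recovered reads, a replicate block and leaving out 1 library. The median log2 difference of the 5 proteases lay between -3.30 and -3.14 under the alternatives that keep all libraries, and between -3.54 and -2.93 with a library left out, lowest without WC1 1 and highest without WC1 2. Tpsab1 ranged from -3.05 with DESeq2 to -1.96 without Ctrl 2, and it is not among the genes with a mean of at least 5 CPM. The TPM matrix moved the median of all genes from -0.02 to 0.10 and raised the percentage of calls in the higher direction from 57.0% to 77.9%.

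Without a filter, where 18132 genes were tested, 532 genes were lower and 788 higher, compared to 1088 and 1443. The counts in the 6 lists were then 2 higher in all, with 1 higher for mast cell identity and 0 higher for storage and processing. Inhibitors had 2 lower and 0 higher, substrates and receptors 3 lower and 0 higher, and growth and homing 4 lower. In the TPM matrix 583 genes were lower in all, 4 in storage and processing and 4 in growth and homing. DESeq2 called 1736 genes lower, 13 lower in storage and processing, 2 higher among inhibitors and 5 higher among substrates and receptors. With a mean of at least 5 CPM, which leaves fewer genes, the other proteases had 0 lower and 0 higher, the mast cell list 7 lower and the markers that are not members 3 lower.

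With a library left out, the single library remaining in that group is taken to vary as the other group does. The number of lower genes then ranged from 4 to 2748 and of higher genes from 2 to 2424. Over the 6 lists it ranged from 0 to 54 lower and from 0 to 11 higher. By list the ranges were 0 to 3 lower and 0 to 1 higher for other proteases, 0 to 16 and 0 to 2 for mast cell genes, 0 to 18 and 0 to 1 for storage and processing, 0 to 4 and 0 to 2 for inhibitors, 0 to 7 and 0 to 4 for substrates and receptors, and 0 to 8 and 0 to 1 for growth and homing. For the markers that are not members the range was 0 to 6 lower. The zeros came without Ctrl 1 and without Ctrl 2, where 51 and 47 list genes and 5 and 5 of these markers had an unadjusted p under 0.05 in limma. Of the 33 called genes named by rule, 33 were no longer called without Ctrl 1 and 33 without Ctrl 2, while 0 did so without WC1 1 and 1 (Tpsg1) without WC1 2.

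The titles number the libraries 1 and 2 in both groups, but nothing says that equal numbers pair the mice, and the replicate differences of the groups correlated with r = 0.19 over genes. With a replicate block 46 genes of the lists were lower and 9 higher, 2 inhibitors were higher, Kit was called (limma adjusted p = 0.0394) and Tpsg1 was not (0.0634). The cause of the changes listed here was not tested.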
